A study of Oryza sativa with 4 samples.

Results

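Histones are the proteins around which nuclear DNA is wound, and the genes described here are those of the core histones H2A, H2B, H3 and H4, of the linker histone H1 and of CENH3, the H3 variant of centromeres. The member list holds 43 rice identifiers, of which 24 were found in at least 1 of the 2 deposited tables, out of 20567 genes in the tables together. RNA was sequenced in bulk from protoplasts, that is, cells whose walls had been digested away, of root tips of the Indica cultivar (2 libraries), whose label is written in full in the plot legends, and of the Japonica cultivar Nipponbare (2 libraries). Both cultivars were 3 days old, no treatment, transgene or mutation is named for either, tips of 5 mm were taken from 800 crown roots, and poly(A) RNA was selected. The labels do not state if the libraries within a cultivar are separate preparations. The p-values below therefore reflect the spread between 2 libraries that may differ for technical reasons alone, and cultivar and preparation cannot be told apart.

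Pairs of H2A and H2B, together with H3 and H4, form the core of the nucleosome, and H1 binds the DNA between nucleosomes. Much of the histone supply is made while DNA is being copied, when each new chromosome needs its own nucleosomes, whereas some variant forms are made in non-dividing cells as well and are exchanged into existing chromatin. In plants, histone messenger RNAs carry poly(A) tails, so that selection with oligo(dT) captures them. Root tips contain the dividing cells of the meristem beside elongating and maturing cells.

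Values are RPM, that is, reads scaled by the library total, with decimal points that were lost in the deposited tables and had to be restored. The library totals implied by the values ran from 21504426 to 21504715 reads, and 1 read is worth 0.0465 RPM. The listed genes held 42.3% and 43.5% of these totals in the Indica cultivar and 55.6% and 55.7% in Nipponbare. If the rest of each total lay in unlisted genes or in reads given to no gene is not stated. The tables list 13486 genes for the Indica cultivar and 15657 for Nipponbare, with 8576 in both, so their coverage is unlike. If both true read numbers of a gene end in 0 and both true values are 10 RPM or more, the restored pair is at least 10 times too low. No value under 1 RPM had lost its point. Across the 7269 tested genes, the correlation of log2(RPM + 1) was 0.996 within the Indica cultivar and 0.998 within Nipponbare, but from 0.336 to 0.342 between the cultivars, so the tables stood apart across all genes and not in histone genes alone. What sets the tables apart was not tested. Restoration took the closest pair of the 2 libraries, so the agreement within a cultivar was partly set by it, as was the spread behind the p-values. Of the markers checked, RCc3, known from rice roots but not checked here by symbol, was at 7310 and 7857 RPM in the Indica cultivar and 3366 and 3334 RPM in Nipponbare. The 2 root meristem markers summed to 116 and 120 RPM in the Indica cultivar and to 0.233 and 0.186 RPM in Nipponbare. Nearly all of it was PLT1, whose name was not checked, at 115 and 119 RPM in the Indica cultivar, whereas QHB, the gene of the quiescent centre, was at 0.233 and 0.791 RPM in the Indica cultivar and had 0 reads in Nipponbare. The 4 leaf markers summed to 6.0 and 6.7 RPM in the Indica cultivar and were at 0 in Nipponbare where listed, and 2 of the 4 matched neither table. Other markers of the Nipponbare libraries were low too, with sums of 0.0465 and 0.279 RPM for the 2 stele markers and 0.791 RPM in each library for the 2 root hair markers, against 15.8 and 16.9 RPM and 61.0 and 60.9 RPM in the Indica cultivar. The symbol of 1 of the root hair markers, FH1, was not checked either. In the Indica cultivar only Lsi2 of the 3 endodermis markers was listed, at 10.2 and 12.8 RPM, and in Nipponbare Lsi2 and SCR1 had 0 reads and Lsi1 was at 4.19 and 4.88 RPM. In bulk RNA, fewer cells of a type and less RNA per cell cannot be told apart, and the part of cell composition in the histone differences was not tested.

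Of the 43 members, 20 are listed for the Indica cultivar and 22 for Nipponbare, with 18 in both, 2 for the Indica cultivar only and 4 for Nipponbare only. The other 19 identifiers matched neither table and are not analysed here. They include all 8 genes of H4, the partner of H3, so nothing can be said of that class, together with 3 of 9 H3 genes, 4 of 13 H2A genes, 3 of 9 H2B genes and 1 of 3 H1 genes. A gene outside a table is not a gene at 0 RPM, because no source used here gives the reason for listing. Genes of a histone class resemble each other in sequence, and how reads that match several of them were counted is not given either, so the value of a single gene is less certain than that of a gene without close copies.

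Some histone genes were higher in the Indica cultivar and others in Nipponbare. Of 17 members tested, 10 were higher in the Indica cultivar and 7 in Nipponbare by limma on log2(RPM + 1) at an adjusted p of 0.05, or 58.8% and 41.2%. Of all 7269 genes tested, 59.0% were higher in the Indica cultivar and 37.9% in Nipponbare, so the histone counts were close to the background. The median difference, the Indica cultivar minus Nipponbare, was 1.46 for the members and 1.44 for all genes on the log2 scale. By class, all 7 tested H2A genes and the CENH3 gene were higher in the Indica cultivar, while 2 of 3 H3 genes, 4 of 5 H2B genes and the single tested H1 gene were higher in Nipponbare. Genes were tested if their 4 libraries averaged 1 RPM or more. The H2A genes LOC_Os08g33100 and LOC_Os10g28230 averaged under 1 RPM in Nipponbare and passed only through the Indica cultivar, where they were high. LOC_Os01g05610 of H2B passed only through Nipponbare in the same way. The direction of these calls was partly set by the filter. The libraries of all 18 members in both tables did not overlap between the cultivars, with 11 members higher in the Indica cultivar and 7 in Nipponbare. This held for 62.6% (higher in the Indica cultivar) and 35.6% (higher in Nipponbare) of all 8576 genes in both tables. Whether the classes differ from each other was not tested. Beside the median of 1.44 for all genes, the median log2 difference was 2.59 for H2A, -0.80 for H3 and -1.12 for H2B.

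**Figure D1:**
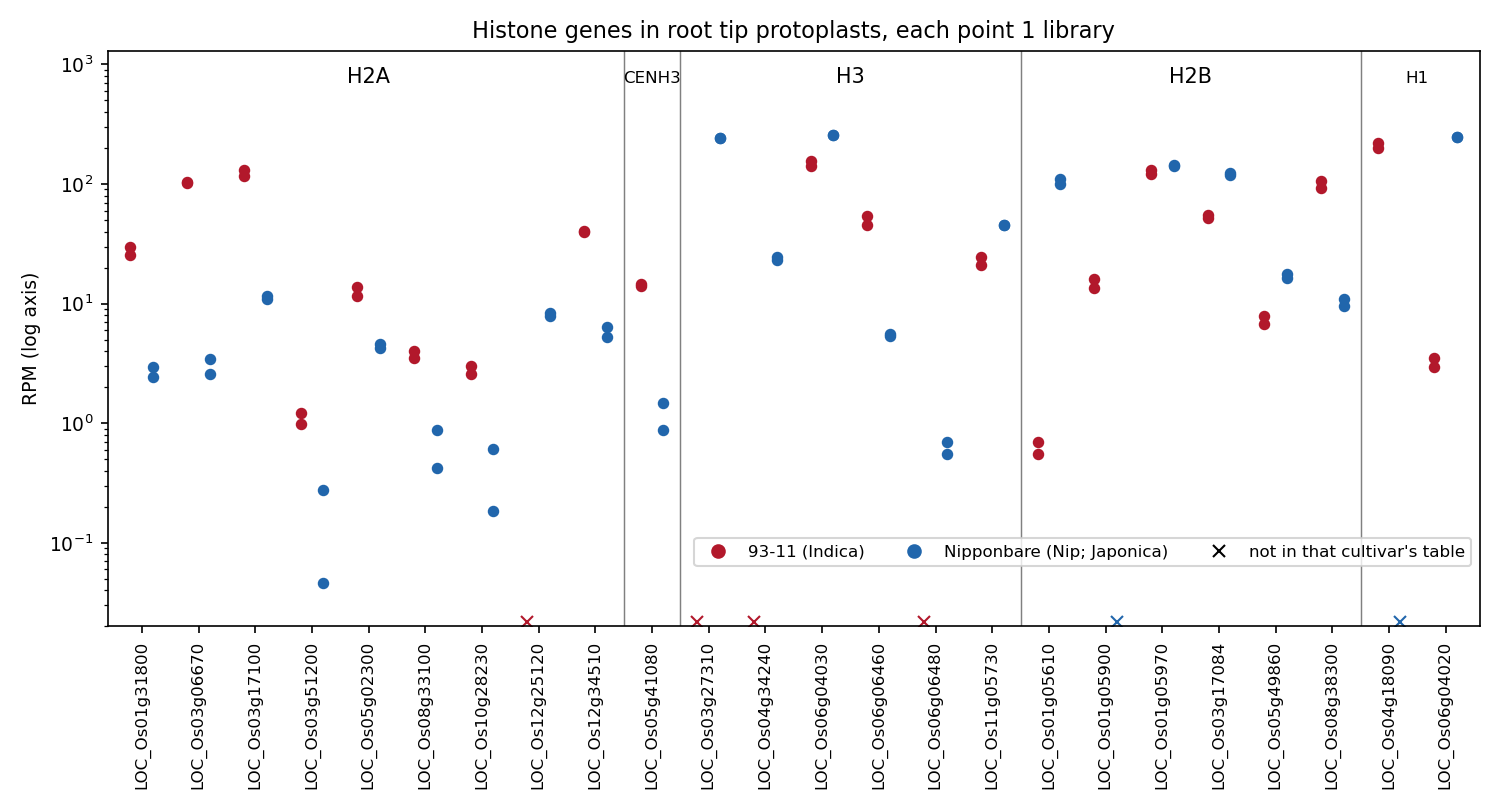
RPM on a log axis of the 24 histone genes found in at least 1 table, with 1 point per library and the Indica cultivar to the left of Nipponbare; a cross marks a gene that the cultivar's table does not list. Every H2A gene listed for both cultivars lies higher in the Indica cultivar, whereas H3 and H2B hold genes on either side, and LOC_Os01g05610 and LOC_Os06g04020 stand at 104 and 248 RPM on average in Nipponbare.

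H2A genes were higher in the Indica cultivar without exception among those that could be tested. The 8 H2A genes in both tables summed to 303 and 327 RPM in the Indica cultivar and to 29.1 and 27.6 RPM in Nipponbare, an 11.1-fold difference of the means (315 ± 16.4 and 28.4 ± 1.05 RPM, SD, n = 2 each). LOC_Os03g06670 was at 101 and 104 RPM in the Indica cultivar and at 3.44 and 2.56 RPM in Nipponbare. Its Indica libraries were far above both Nipponbare libraries, a fold of 34.2 and a log2 difference of 4.70 (SE 0.12, limma adjusted p = 2.39e-06), more than any other H2A gene. LOC_Os03g17100 had 118 and 132 RPM in the Indica libraries, against 10.9 and 11.5 RPM in Nipponbare. As in most genes of both tables, the groups did not overlap, and the gene was 11.1-fold higher in the Indica cultivar (log2 difference 3.36, SE 0.07, limma adjusted p = 1.74e-06).

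LOC_Os12g34510 stood at 40.2 and 39.8 RPM in the Indica cultivar and 6.37 and 5.25 RPM in Nipponbare, 6.88-fold higher (limma adjusted p = 7.57e-06). LOC_Os01g31800 was at 25.4 and 29.5 RPM in the Indica cultivar and 2.98 and 2.42 RPM in Nipponbare, 10.2-fold higher (limma adjusted p = 1.01e-05). Neither gene's libraries overlapped between the cultivars, and 62.6% of all genes in both tables were higher in the Indica cultivar without overlap. Of the rest, LOC_Os05g02300 showed the smallest tested H2A difference, 2.86-fold, with 11.6 and 13.9 RPM in the Indica cultivar and 4.28 and 4.60 RPM in Nipponbare. Its log2 difference of 1.33 was the only one among the 7 H2A genes that lay below the median of all genes. LOC_Os08g33100 and LOC_Os10g28230 averaged 3.79 and 2.79 RPM in the Indica cultivar and had 28 and 17 reads over both Nipponbare libraries, all in values that kept their decimal point. Both were called higher in the Indica cultivar (limma adjusted p = 0.000376 for LOC_Os08g33100 and 0.000601 for LOC_Os10g28230), but neither was called after quantile normalization (limma adjusted p = 0.0792 for LOC_Os08g33100 and 0.651 for LOC_Os10g28230). Without single libraries of the Indica cultivar the differences stayed near their values of 1.55 for LOC_Os08g33100 and 1.46 for LOC_Os10g28230. Nipponbare alone then gave the spread that the lone library is assumed to share. The log2 difference of LOC_Os08g33100 was 1.63 without replicate 1 and 1.47 without replicate 2, and its call was lost only without replicate 2. That of LOC_Os10g28230 was 1.54 without replicate 1 and 1.37 without replicate 2, and its call was lost in either fit. LOC_Os03g51200, with 47 reads in the Indica cultivar and 7 in Nipponbare over both libraries, did not pass the filter of a mean of 1 RPM. LOC_Os12g25120 was listed for Nipponbare only, at 8.42 and 7.86 RPM.

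**Figure D2:**
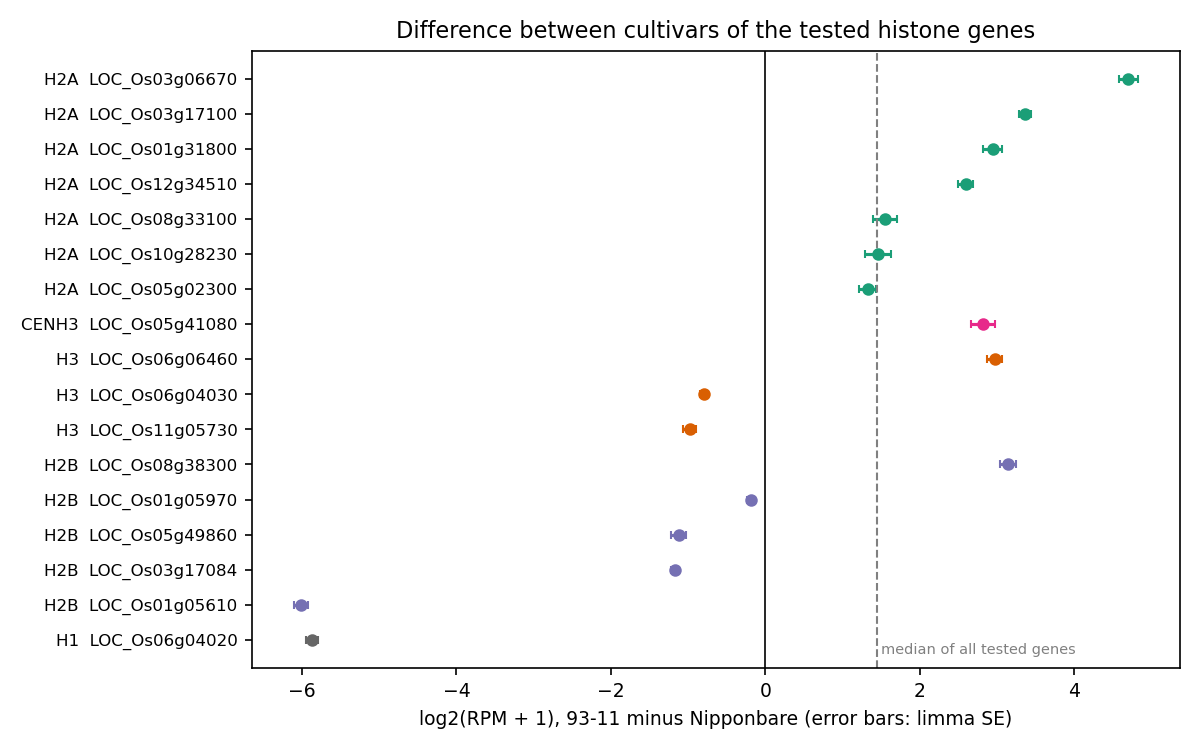
Difference in log2(RPM + 1), the Indica cultivar minus Nipponbare, with its limma standard error, of the 17 tested histone genes grouped by class; the solid line marks equality and the dashed line the median of all 7269 tested genes at 1.44. H2A differences run from 1.33 to 4.70, and H2B differences from -6.02 to 3.14.

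H2B pairs with H2A in the nucleosome. Of its 5 tested genes, 1 was higher in the Indica cultivar and 4 in Nipponbare. The 5 H2B genes in both tables summed to 273 and 298 RPM in the Indica cultivar and to 394 and 396 RPM in Nipponbare, 1.38-fold higher in Nipponbare (285 ± 18.3 and 395 ± 1.02 RPM, SD, n = 2 each). LOC_Os01g05610 was at 0.698 and 0.558 RPM in the Indica cultivar, which is 15 and 12 reads, against 109 and 99.4 RPM in Nipponbare. It was 166-fold higher in Nipponbare with a log2 difference of -6.02 (SE 0.09, limma adjusted p = 9.12e-07), and its low values kept their decimal point. Of all genes tested, 2.37% had a difference of -5 or lower. LOC_Os08g38300 went the other way, with 92.5 and 105 RPM in the Indica cultivar and 9.58 and 11.0 RPM in Nipponbare. It was 9.59-fold higher in the Indica cultivar (log2 difference 3.14, SE 0.10, limma adjusted p = 4.14e-06). This call rested on restoring the libraries together: with each library restored on its own, the Indica cultivar replicate 2 is read 10 times lower and the log2 difference was 1.54 (limma adjusted p = 0.335).

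LOC_Os03g17084 stood at 51.9 and 54.6 RPM in the Indica cultivar, against 119 and 123 RPM in Nipponbare, and was 2.27-fold higher in Nipponbare (log2 difference -1.17, SE 0.05, limma adjusted p = 9.96e-06). LOC_Os05g49860 had 6.74 and 7.81 RPM in the Indica cultivar and 16.2 and 17.7 RPM in Nipponbare, 2.33-fold higher in Nipponbare (limma adjusted p = 0.00019). The libraries of either gene did not overlap between cultivars, and 35.6% of all genes in both tables were higher in Nipponbare without overlap. LOC_Os01g05970 was at similar levels, 121 and 130 RPM in the Indica cultivar and 141 and 145 RPM in Nipponbare. Its log2 difference of -0.18 was called (SE 0.05, limma adjusted p = 0.02), but it was lost on leaving out any library other than the Indica cultivar replicate 2, where the limma adjusted p was 0.0723 (the Indica cultivar replicate 1), 0.0833 (Nipponbare replicate 1) and 0.133 (Nipponbare replicate 2). The call was also lost with each library restored on its own (limma adjusted p = 0.0704). The difference turned to 0.33 with a call for the Indica cultivar after quantile normalization (limma adjusted p = 0.00156). LOC_Os01g05900 was listed for the Indica cultivar only, at 13.5 and 16.0 RPM. Identifiers of this kind are numbered along the chromosome, and LOC_Os01g05610, LOC_Os01g05900 and LOC_Os01g05970 belong to one group of near neighbours on chromosome 1, in which the first was low in the Indica cultivar and the last was present in both cultivars at over 100 RPM.

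As shares of the class total, which compare one gene between cultivars and are not adjusted for gene length, LOC_Os08g38300 made up 34.6% of H2B in the Indica cultivar and 2.61% in Nipponbare (means of 2 libraries). LOC_Os01g05610 made up 0.221% in the Indica cultivar and 26.4% in Nipponbare. LOC_Os01g05970 made up 44.0% in the Indica cultivar and 36.1% in Nipponbare. H2A was differently composed as well: LOC_Os03g06670 held 32.6% of it in the Indica cultivar and 10.5% in Nipponbare, while LOC_Os03g17100 held 39.5% in the Indica cultivar and 39.6% in Nipponbare.

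**Figure D3:**
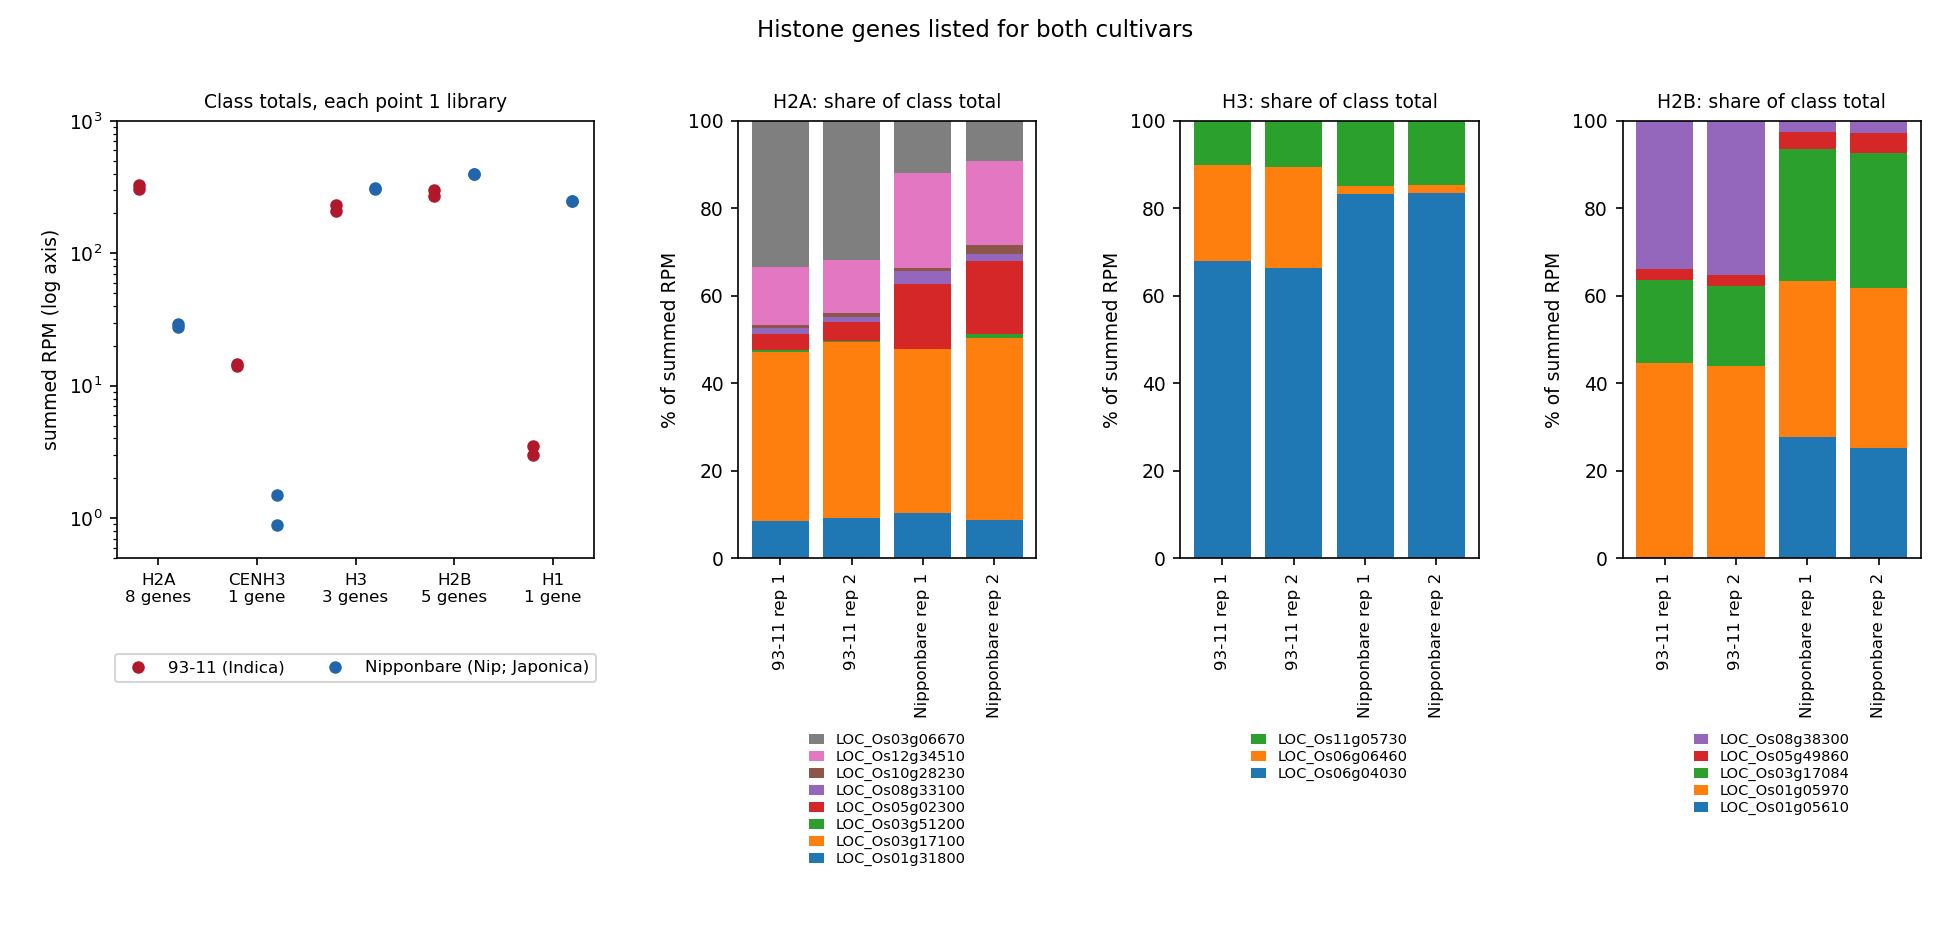
Left, RPM summed over the genes of each class listed for both cultivars, on a log axis with 1 point per library; right, stacked bars with the percentage of the class total held by each gene in each library, for H2A, H3 and H2B. H2A sums are 303 and 327 RPM in the Indica cultivar and under 30 RPM in Nipponbare, while LOC_Os08g38300 takes 34.6% of the H2B bars in the Indica cultivar and LOC_Os01g05610 26.4% in Nipponbare, on average.

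Of the H3 genes, 2 of the 3 in both tables were higher in Nipponbare and 1 in the Indica cultivar. Their sum was 208 and 233 RPM in the Indica cultivar and 306 and 309 RPM in Nipponbare, 1.40-fold higher in Nipponbare (220 ± 18.0 and 308 ± 2.14 RPM, SD, n = 2 each). The gene LOC_Os06g04030 was at 141 and 154 RPM in the Indica cultivar and at 255 and 258 RPM in Nipponbare. It was 1.74-fold higher in Nipponbare with a log2 difference of -0.80 (SE 0.05, limma adjusted p = 7.24e-05). The difference was -0.20 after quantile normalization (limma adjusted p = 0.0116) and -1.33 after median-ratio scaling (limma adjusted p = 3.77e-06). LOC_Os11g05730 had 20.9 and 24.3 RPM in the Indica cultivar, against 45.5 and 45.3 RPM in Nipponbare, 2.01-fold higher (log2 difference -0.98, SE 0.08, limma adjusted p = 0.000187). LOC_Os06g06460 went the other way, with 45.8 and 54.2 RPM in the Indica cultivar and 5.58 and 5.39 RPM in Nipponbare. It was 9.11-fold higher in the Indica cultivar (log2 difference 2.97, SE 0.10, limma adjusted p = 4.93e-06). No gene of the 3 had libraries that overlapped between the cultivars. The same was true of 62.6% (higher in the Indica cultivar) and 35.6% (higher in Nipponbare) of all 8576 genes in both tables. LOC_Os06g06460 made up 22.7% of the H3 total in the Indica cultivar and 1.78% in Nipponbare.

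Another 3 H3 genes had values in Nipponbare alone, with no comparison possible. LOC_Os03g27310 was at 243 and 241 RPM, LOC_Os04g34240 at 23.2 and 24.5 RPM and LOC_Os06g06480 at 0.558 and 0.698 RPM. With them the Nipponbare H3 total came to 573 and 575 RPM. Which H3 genes encode the form tied to DNA replication and which a variant is not given by the files or the RefSeq gene table, and no sequence was at hand to tell.

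CENH3 replaces H3 in the nucleosomes of centromeres, where the kinetochore forms. Its gene LOC_Os05g41080 was at 14.6 and 14.0 RPM in the Indica cultivar, against 1.49 and 0.884 RPM in Nipponbare. As in most genes of both tables, the Indica libraries did not overlap those of Nipponbare. The gene was 12.1-fold higher in the Indica cultivar (log2 difference 2.82, SE 0.15, limma adjusted p = 2.93e-05). The Nipponbare mean of 1.19 ± 0.427 RPM (SD, n = 2) rests on 51 reads, and 1 of its 2 values kept its decimal point.

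The H1 genes in the tables were each abundant in a single cultivar as far as they were listed. LOC_Os06g04020 was at 2.98 and 3.53 RPM in the Indica cultivar, against 247 and 248 RPM in Nipponbare. It was 76.1-fold higher in Nipponbare with a log2 difference of -5.87 (SE 0.08, limma adjusted p = 8.49e-07). LOC_Os04g18090 was listed for the Indica cultivar only, at 199 and 222 RPM, so no value of Nipponbare stands beside it. Summed over the H1 genes each table lists, the Indica cultivar had 202 and 226 RPM and Nipponbare 247 and 248 RPM, although the sums come from different genes: 2 in the Indica cultivar and 1 in Nipponbare. The third H1 identifier matched neither table.

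Of the differences named above, 4 lie near 10-fold, where a Nipponbare pair restored 10 times too low would leave almost no difference: 11.1-fold for LOC_Os03g17100, 10.2-fold for LOC_Os01g31800, 9.59-fold for LOC_Os08g38300 and 9.11-fold for LOC_Os06g06460. The Nipponbare reads of these genes were 235 and 247, 64 and 52, 206 and 237, and 120 and 116, and the files cannot tell them from 10 times as many. Other pairs of 1 RPM or more share this limit. Examples are LOC_Os06g04020 in the Indica cultivar (64 and 76 reads) and LOC_Os03g06670 in Nipponbare (74 and 55 reads). Class sums share it too: LOC_Os03g17100 held 39.6% and LOC_Os01g31800 9.49% of the Nipponbare H2A sum (means of 2 libraries). Across members, the Indica cultivar replicate 2 was higher than replicate 1 for 16 of 20 genes, and Nipponbare replicate 2 was higher for 12 of 22. No such count was made over all listed genes, so these counts are not read as a trait of histone genes. All listed genes together held 42.3% of the total in replicate 1 and 43.5% in replicate 2 of the Indica cultivar. In Nipponbare they held 55.6% and 55.7%.

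Genes that act beside histones while DNA is copied were compared from 2 lists. Of the 9 replication genes in the list, 7 were tested and all 7 were higher in the Indica cultivar, beside 59.0% of all genes, with a median log2 difference of 3.11. Among them, MCM2, MCM4 and MCM5 averaged under 1 RPM in Nipponbare and passed the filter only through the Indica cultivar. MCM4, a subunit of the helicase that unwinds DNA, showed the greatest difference of the list, at 15 and 18 RPM in the Indica cultivar with 0 reads in either Nipponbare library. It was at least 119-fold higher in the Indica cultivar, against a floor of 3 reads per library (limma adjusted p = 3.00e-06). The smallest difference was that of RNRL1, a subunit of ribonucleotide reductase, which supplies the building blocks of DNA, at 33.4 and 27.7 RPM in the Indica cultivar and 6.14 and 5.35 RPM in Nipponbare (5.32-fold, limma adjusted p = 2.89e-05). Its name was not checked. MCM7 was listed for Nipponbare only, with 0 reads, and RNRS1 matched neither table.

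Histone chaperones hand histones to DNA. Of 5 chaperone genes in the list, 3 were tested, with 2 higher in the Indica cultivar and 1 in Nipponbare, beside 59.0% and 37.9% of all genes. FSM, the largest subunit of chromatin assembly factor 1, which places H3 and H4 on newly copied DNA, was at 14.6 and 15.7 RPM in the Indica cultivar. Nipponbare had 0 reads, so that the gene was at least 109-fold higher in the Indica cultivar (limma adjusted p = 1.40e-06), with an unchecked name. FSM thus passed the filter only through the Indica cultivar. FAS2, another subunit of that factor, was at 17.4 and 18.5 RPM in the Indica cultivar and 4.37 and 4.51 RPM in Nipponbare. The SSRP1 genes encode a subunit of FACT, which acts on H2A and H2B. SSRP1-A was listed for the Indica cultivar only, at 54.7 and 55.5 RPM, and SSRP1-B had 2.33 and 1.63 RPM in the Indica cultivar and 5.58 and 4.70 RPM in Nipponbare, with a log2 difference of -1.05 (SE 0.15, limma adjusted p = 0.00152). SPT16, the other FACT subunit, matched neither table.

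**Figure D4:**
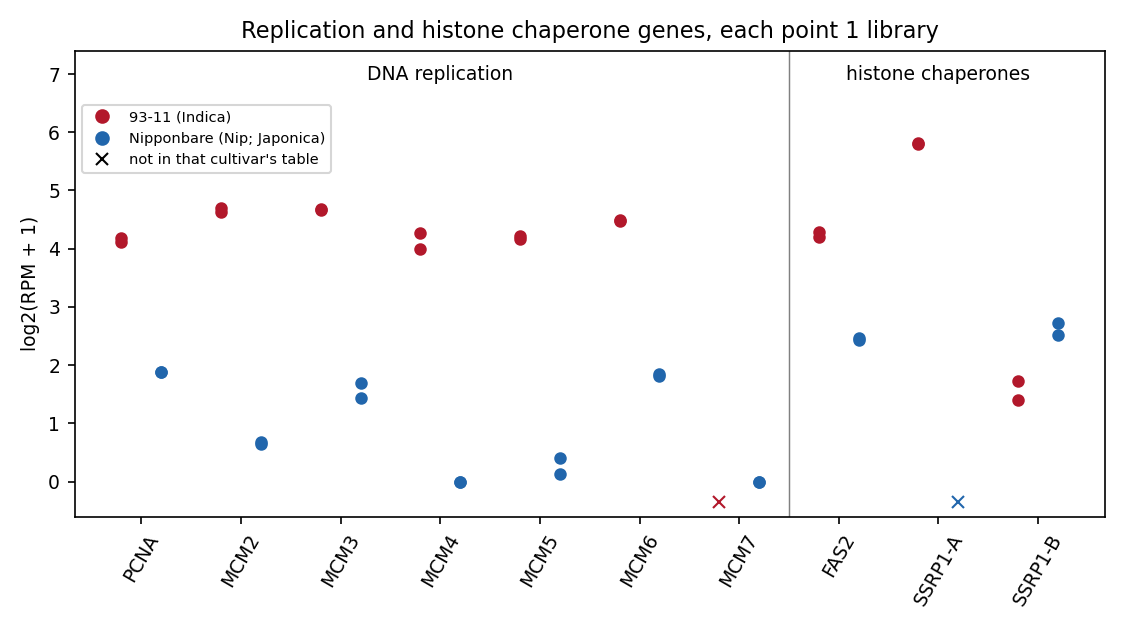
log2(RPM + 1) of the replication and histone chaperone genes whose symbol was found on the chromosome their identifier names (FSM and RNRL1 were not checked and are left out), with 1 point per library and the Indica cultivar to the left of Nipponbare; a cross marks a gene that the cultivar's table does not list. The 6 replication genes listed for both cultivars lie higher in the Indica cultivar, and SSRP1-B lies higher in Nipponbare.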

How the data were processed

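The authors deposited 1 table of RPM per cultivar with a column for each of its 2 libraries, made with HISAT2 2.0.4 and HTSeq 0.11.2 among the tools, per the submitters' processing notes. Build, annotation and strand setting of the counting are not given in the sources used. In the deposited tables, between 61.6% and 76.5% of the values per library had lost their decimal point, so the columns were treated as other text and restored. The smallest value gave the library total, and each value was set to a whole number of reads, taking the closest pair of the 2 libraries and the lowest of equally close pairs. The other library raised a value above its lowest whole number in 964 genes of the Indica cultivar and 822 of Nipponbare. No value failed (0 genes, tolerance 1e-06 of a read plus 1e-12 of the value), and 3 genes of the Indica cultivar and 1 of Nipponbare were left out because their pair differed by over 0.4 in log10. Restoration was tested on simulated data.

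Genes of both tables whose 4 libraries averaged 1 RPM or more were compared on log2(RPM + 1) by limma 3.58.1 in R 4.3.3 (variance trend on). This scale understates the change of low genes. P-values were adjusted by Benjamini-Hochberg over all these genes and called at 0.05. Fold changes are ratios of mean RPM. Floors and read numbers cover counting error only. Members, lists and tests were chosen with earlier results of these data known. Classes follow the member list and knowledge of the rice literature. The RefSeq gene table (ASM3414082v1) holds 0 of the identifiers and served as a check: it has H2B or CENH3 symbols on the chromosomes of all 10 members of these classes. Values of every library are given for members with a mean of at least 20 RPM in either cultivar, for tested members against the direction of their class, for H1 and CENH3, and for most others. For the other lists, the greatest and smallest differences are named. The promoter motifs planned were not searched, as no promoter sequence was used here. Replicate numbers do not pair the libraries across cultivars by any label.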

Additional observations from a re-analysis of the deposited data

How the results depend on the processing

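Of the 17 tested members, 13 kept their direction and call under all 10 alternatives, and 4 did not (LOC_Os01g05970, LOC_Os08g33100, LOC_Os10g28230 and LOC_Os08g38300, with values in the text). No alternative could show a pair restored 10 times too low, because restoring each library on its own takes the lowest whole number. The calls of LOC_Os03g17100, LOC_Os01g31800 and LOC_Os06g06460 therefore held without a test of that error. LOC_Os01g05970 was the only member to turn, with a log2 difference of 0.33 after quantile normalization, and the cause was not tested. Quantile normalization also moved the log2 differences of LOC_Os05g02300 to 0.41, LOC_Os05g49860 to -1.90 and LOC_Os05g41080 to 1.81, with their calls kept. Median-ratio scaling moved LOC_Os11g05730 to -1.50, LOC_Os05g02300 to 0.86 and LOC_Os01g05970 to -0.72, and a pseudocount of 0.1 RPM moved LOC_Os08g33100 to 2.44 and LOC_Os10g28230 to 2.68, also with calls kept. The median difference of all genes, 1.44, was 1.03 after median-ratio scaling and 0.49 after quantile normalization. Median-ratio scaling moved the Indica over Nipponbare ratio of the class sums to 0.492 for H3, 7.63 for H2A, 0.496 for H2B and 0.00903 for H1, from 0.716, 11.1, 0.722 and 0.0131, by its own construction. Summing all members that each table lists gave 0.384 for H3, 8.63 for H2A and 0.864 for H1, because other genes enter. Restoring each library on its own gave 0.603 for H2B, through LOC_Os08g38300. Over all genes it gave 3727 calls higher in the Indica cultivar and 2232 in Nipponbare, against 4290 and 2757. With the replicate number as a block, the members split 10 to 7 as before, and no call changed. The libraries share only a number: same-numbered deviations had a correlation of 0.0194 across genes. Leaving out each library in turn gave 8 to 10 members higher in the Indica cultivar and 6 to 7 in Nipponbare. Depth limits genes of few reads, such as LOC_Os03g51200, which was called higher in the Indica cultivar with no filter (log2 difference 0.85, limma adjusted p = 0.0038).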
